A study of Mus musculus with 6 samples.

Results

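The HORMAD axis proteins and the DNA break machinery form a working unit at the start of meiosis, and the RNA of 10 mouse genes that encode it was compared between control and Eef1g-cKO spermatocytes. The genes were chosen by name, as Hormad1, Hormad2, Trip13, Spo11, Iho1 (listed as Ccdc36), Mei1, Mei4, Rec114, Ankrd31 and Top6bl (listed as Gm960). All 10 were found among the 54532 genes of the count table. Of them 9 had enough reads to be tested, and Rec114 did not. Spermatocytes in leptotene and zygotene (L/Z), the stages at which chromosomes condense and begin to pair, were sorted by flow cytometry from testes at 12 dpp (days postpartum), and 3 control and 3 Eef1g-cKO libraries were sequenced from polyadenylated RNA amplified as full-length cDNA. Control samples carry the genotype label wild type and are described in the study as littermates. In Eef1g-cKO males, on a C57BL/6J background, Stra8-GFPCre removes floxed exons 2 to 7 of Eef1g, a subunit gene of the translation elongation factor eEF1, and this Cre acts in germ cells from type A1 spermatogonia onward. Whether controls carry the Cre or a floxed allele is not given in the sources used here. Nothing states that the 3 samples of a group came from separate animals, so p-values measure the spread between these samples, which may be partly technical.

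In leptotene, each chromosome is organised along a protein axis, and HORMAD1 and HORMAD2 bind to axes that have not yet synapsed. HORMAD1 recruits IHO1 to the axis, where IHO1 works with REC114, MEI4, MEI1 and ANKRD31 to allow SPO11 and its partner TOPOVIBL, the product of Top6bl, to cut DNA and start recombination. Once homologues synapse, the ATPase TRIP13 strips the HORMAD proteins from the axis, which is linked to the end of break formation.

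The libraries held between 763133 and 2617648 reads assigned to genes, and Eef1g-cKO replicate 3 was the shallowest. At these depths 3 reads, taken as the detection floor, corresponded to 1.18 to 4.63 CPM (counts per 1000000 reads, with TMM-scaled library totals). The kit used no molecular identifiers, so amplified copies of the same molecule cannot be told from separate molecules. The floors and the binomial intervals of Hormad1 read shares treat reads as independent and leave out the spread between libraries. Intervals of log2 fold changes come from the edgeR fits and also reflect that spread. For Eef1g itself, every Eef1g-cKO library (119 to 151 CPM) lay below every control library (212 to 226 CPM). The log2 difference was −0.68 with SE 0.20 and edgeR adjusted p = 0.029, so 0.624 of the control level remained. Reads were counted per gene, so whether the remaining reads come from the deleted exons cannot be seen. The 7 L/Z markers together reached 8220 to 8950 CPM across the control libraries, while the Eef1g-cKO libraries held 15400 to 22600 CPM of them. Sycp1 was the largest part of each sum. Sycp1, Sycp3, Smc1b and Dmc1 were higher and Stra8 was lower, and Prdm9 and Meiob did not pass (edgeR adjusted p = 0.137 and 0.906). RNA of L/Z markers was thus present in both groups, but these sums do not measure how pure each sort was. By SYCP3 and γH2AX staining, the paper reports a comparable share of L/Z cells in sorts of both genotypes. Summed levels of the 14 spermatogonial markers were 1590 to 1790 CPM in control and 740 to 910 CPM in Eef1g-cKO libraries. Of these markers 5 of the 7 tested were lower, and Id4 and Sohlh2 did not pass (edgeR adjusted p = 0.429 and 0.855). This count and the marker counts that follow stand beside the 6.01% of all tested genes that were called lower. The 9 Sertoli markers summed to 153 to 477 CPM in control and 26.3 to 90.6 CPM in Eef1g-cKO libraries, with 3 of 5 tested lower and Amh and Gata4 at the floor in every library. The 8 peritubular and stromal markers summed to 191 to 329 CPM and 18.5 to 80.0 CPM, with 4 of 5 tested lower. Sums for 11 pachytene and later genes were 25.7 to 42.5 CPM in control and 3.09 to 16.1 CPM in Eef1g-cKO libraries, and 7 of these genes, Pgk2, Acr, Acrv1, Tnp1, Prm1, Prm2 and Spata16, were at the floor everywhere. Leydig markers summed to 8.40 to 10.7 CPM and 1.57 to 6.47 CPM with 5 of 6 at the floor, and blood and endothelial markers to 7.28 to 77.9 CPM and 3.53 to 75.7 CPM with 6 of 9 at the floor. The part that these differences in cell makeup have in the results below was not tested, and in sorted bulk samples a change in the mixture of cells cannot be told apart from a change in RNA per cell.

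Genes of the HORMAD axis and of break formation were higher in Eef1g-cKO spermatocytes or did not pass the test, and none was lower. Hormad1, Hormad2, Ccdc36 and Ankrd31 rose, which is 4 of 9 tested genes (Benjamini-Hochberg adjusted p under 0.05 by edgeR's quasi-likelihood test), where 7.8% of all 8513 tested genes were called higher. No member was among the 6.01% of genes called lower. Of the 4, all but Ankrd31 were also over 2-fold, a limit that 3.42% of all tested genes passed upward. The 5 others tested were Trip13, Spo11, Gm960, Mei1 and Mei4, and all but Trip13 had positive log2 fold changes. That of Spo11 was near 0, and it was negative under 5 other settings and without control replicate 2 or Eef1g-cKO replicate 1. Every Eef1g-cKO library lay above every control library for 5 members, the 4 that rose and Gm960, against 16.4% of all tested genes. No member had every Eef1g-cKO library below every control library, against 18.1% of all tested genes. The 9 tested members had a median log2 fold change of 0.69 against −0.05 for all tested genes, and the members were chosen with earlier results in view. The 7 L/Z markers had a median of 1.04. When Eef1g-cKO replicate 3 was left out, 4 members were still called higher and 2 of them were over 2-fold. Without control replicate 1, 2 or 3 the count called higher was 3 each time, since Ankrd31 no longer passed. Of these 3 members, 3, 2 and 2 were over 2-fold in the 3 fits.

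**Figure D1:**
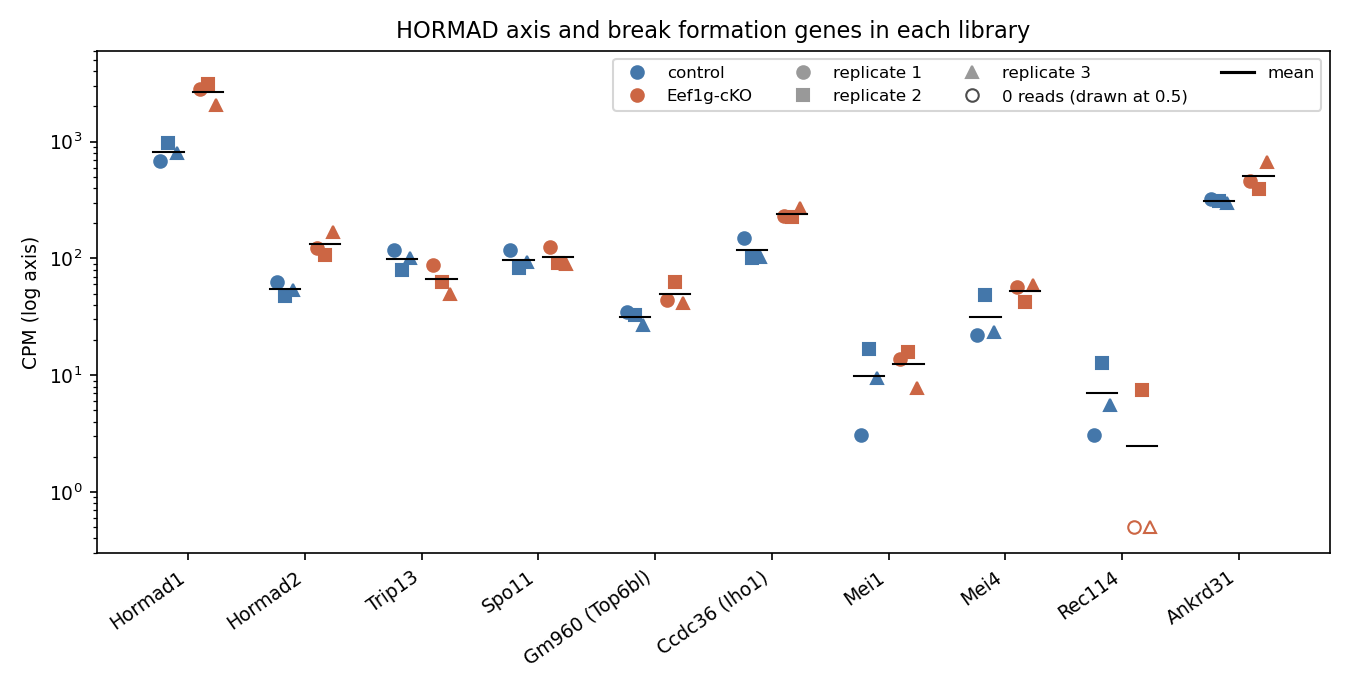
CPM (log axis) of each of the 10 genes in each of the 6 libraries, with circles, squares and triangles for replicates 1 to 3 and black lines for group means (n = 3). Hormad1 lies at 679 to 968 CPM in control and 2070 to 3133 CPM in Eef1g-cKO libraries, Hormad1, Hormad2, Gm960, Ccdc36 and Ankrd31 show no overlap between groups, and Rec114 has 0 reads in 2 Eef1g-cKO libraries.

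The sequences before the start sites of the 4 genes that rose are shown so that the letters they share or lack can be seen. These genes share the difference between groups, but all 4 do not share one order of the libraries within a group. Within Eef1g-cKO, replicate 3, the shallowest library, was highest for Hormad2, Ccdc36 and Ankrd31 and lowest for Hormad1. The sequences are the 250 bases before the RefSeq start, written 5′ to 3′ on the strand of the gene (GRCm38.p6). Matches to 7 searched motifs are in capitals.
Hormad1, chr3:95559427-95559676, plus strand: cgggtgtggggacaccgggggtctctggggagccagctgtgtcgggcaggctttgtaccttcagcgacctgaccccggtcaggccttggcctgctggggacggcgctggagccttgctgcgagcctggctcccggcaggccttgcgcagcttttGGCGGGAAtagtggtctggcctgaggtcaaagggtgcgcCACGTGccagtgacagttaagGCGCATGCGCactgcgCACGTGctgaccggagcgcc
Hormad2, chr11:4441083-4441332, minus strand: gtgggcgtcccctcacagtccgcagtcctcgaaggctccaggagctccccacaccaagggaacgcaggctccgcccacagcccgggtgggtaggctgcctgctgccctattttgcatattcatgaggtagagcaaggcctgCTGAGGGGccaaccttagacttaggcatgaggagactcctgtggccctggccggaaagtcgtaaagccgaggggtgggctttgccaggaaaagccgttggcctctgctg
Ccdc36, chr9:108431827-108432076, minus strand: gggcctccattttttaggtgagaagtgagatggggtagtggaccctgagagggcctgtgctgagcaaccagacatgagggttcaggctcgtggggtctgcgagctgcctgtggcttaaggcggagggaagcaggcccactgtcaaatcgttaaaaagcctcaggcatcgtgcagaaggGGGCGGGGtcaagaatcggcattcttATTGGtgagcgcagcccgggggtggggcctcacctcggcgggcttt
Ankrd31, chr13:96748043-96748292, plus strand: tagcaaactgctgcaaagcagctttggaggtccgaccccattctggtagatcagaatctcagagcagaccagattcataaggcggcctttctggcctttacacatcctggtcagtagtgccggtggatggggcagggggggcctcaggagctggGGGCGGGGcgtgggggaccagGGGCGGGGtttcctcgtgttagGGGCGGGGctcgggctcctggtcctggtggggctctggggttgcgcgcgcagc

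Motifs were searched on both strands in windows of 300 bases, 250 before and 50 from the start, for the 9 members with a RefSeq promoter, all but Spo11. GGCGGGAA, a form of the E2F site, was found in Hormad1 alone among members, at positions −96 to −89 from the start, and in 2.19% of 32851 promoters. GCGCATGC, the core of the NRF1 site, was again found in Hormad1 alone, as a pair of overlapping matches from −36 to −27 on opposite strands, and in 2.71% of promoters. The E-box CACGTG stood at 2 places in Hormad1 and at 1 in Rec114, and 7.15% of promoters held it. CNCCTCAG, reported for the meiotic entry factors STRA8 and MEIOSIN, matched Hormad2 from −109 to −102 on the opposite strand, and 7.94% of promoters held a match. The GC box GGGCGGGG was found in Ccdc36, Trip13 and Ankrd31, with 3 copies in Ankrd31 between −96 and −46, against 17.6% of promoters. CCAAT was found in Rec114, Mei4, Ccdc36 and Gm960, against 37.4% of promoters, and TGACGTCA, the cyclic AMP response element, in no member, against 1.79%. No motif of the 7 was shared by all of the 4 genes that rose, and whether any motif bears on the differences was not tested. CpG counts of the member windows ran from 4 in Gm960 to 34 in Trip13, with 24 in Hormad1 and a median of 7 over all promoters. The RefSeq start lies 2405 bases inside the Rec114 gene and 12480 bases inside the Mei1 gene as the count table places them, so those windows may belong to other transcripts than the counted ones. The RefSeq start of Ccdc36 (Iho1) is at −3342 bases from the start of the counted gene, outside it.

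Hormad1, which encodes the HORMA domain protein that brings the break machinery to the axis, was the most abundant of these genes and rose most. It lies on chromosome 3 from 95559677 to 95587671 (GRCm38, plus strand, 16 exons in its longest transcript). Its level was 679, 968 and 798 CPM in control replicates 1 to 3 and 2833, 3133 and 2070 CPM in Eef1g-cKO replicates 1 to 3. The lowest Eef1g-cKO library was thus far above the highest control library. Hormad1 rose 3.29-fold, or 1.72 on the log2 scale (SE 0.17, edgeR adjusted p = 5.93e-06), and 0.799% of all tested genes had a higher one. Hormad1 took 0.0702% to 0.1% of all reads in control and 0.176% to 0.305% in Eef1g-cKO libraries, with exact binomial 95% intervals that reached 0.105% at most in control and began at 0.166% in Eef1g-cKO. Each interval treats the reads of a single library as independent and does not measure the spread between samples. Its rank among all genes by reads, not corrected for length, went from positions 132, 73 and 97 in control to positions 19, 15 and 35 in Eef1g-cKO libraries. Among the reads of the 10 genes it held 44.9% to 56.9% in control and 60.5% to 75.7% in Eef1g-cKO libraries. The Hormad1 transcript has the lowest GC content of the 10, 35.8%, and its log2 fold change was 1.30 with a correction for GC content.

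Hormad2, the paralog that binds the same unsynapsed axes and is needed for ATR recruitment there, rose as well but from a far lower level. It lies on chromosome 11 from 4345814 to 4441105 (minus strand, 11 exons). Control libraries held 62.6, 47.8 and 53.2 CPM and Eef1g-cKO libraries 122, 107 and 167 CPM. The groups did not overlap, and the highest value was that of Eef1g-cKO replicate 3, the library in which Hormad1 was lowest of its group. The log2 fold change was 1.26 (SE 0.28, edgeR adjusted p = 0.00495), or 2.40-fold. Per kilobase of gene length, Hormad1 was 23.6 times Hormad2 in control and 32.1 times in Eef1g-cKO. The log2 read ratio of Hormad1 to Hormad2 within a library was 3.89 ± 0.451 in control and 4.34 ± 0.644 in Eef1g-cKO (SD, n = 3). These ratios overlapped, and their difference of 0.46 had an exact 2-sided permutation p of 0.4.

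Trip13, whose product removes HORMAD proteins from the axis, did not rise with the HORMAD genes. It lies on chromosome 13 from 73911347 to 73937784 (minus strand, 13 exons). Its level was 118, 79.8 and 101 CPM in control and 88.1, 62.3 and 49.4 CPM in Eef1g-cKO libraries. Eef1g-cKO replicate 1 lay above control replicate 2, so the groups overlapped. The log2 difference of −0.56 (SE 0.29, edgeR adjusted p = 0.224) did not pass, and its 95% interval ran from −1.18 to 0.05. Hormad1 and Trip13, the loaded protein and its remover, were also set against each other within each library. Hormad1 to Trip13 log2 read ratios were 2.53, 3.60 and 2.97 in control and 5.00, 5.65 and 5.37 in Eef1g-cKO libraries, with no overlap. The mean difference of 2.31 had an exact permutation p of 0.1, the smallest that 3 against 3 allows, and 0.3 after Benjamini-Hochberg adjustment over the 6 pairs of genes compared. This ratio does not depend on how libraries are scaled. The 6 pairs were chosen with earlier results known.

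**Figure D2:**
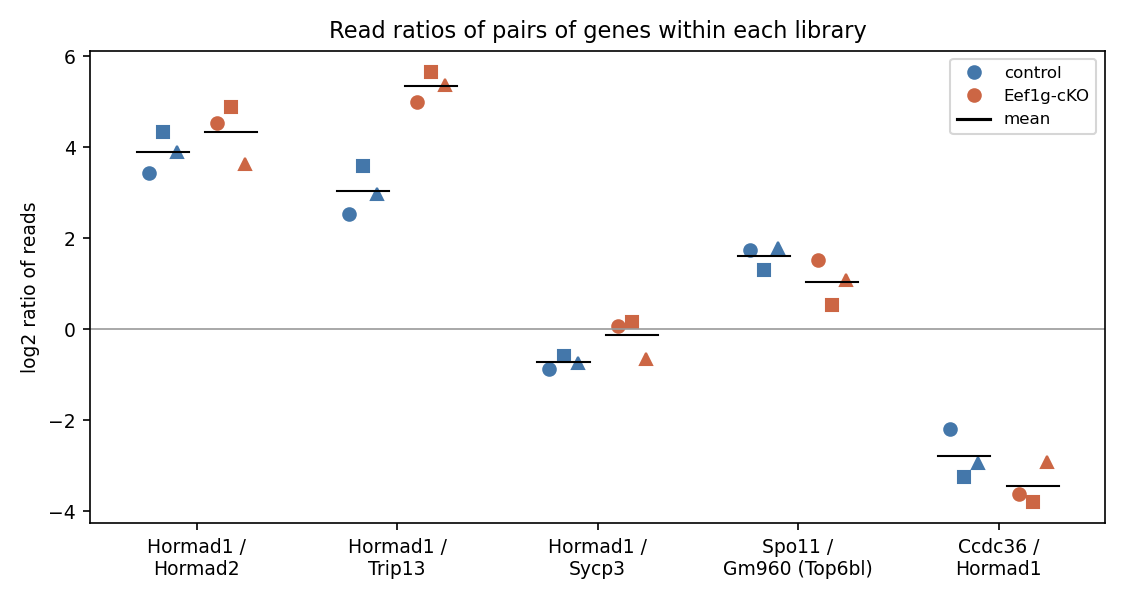
Log2 ratio of reads of 5 pairs of genes within each library, with circles, squares and triangles for replicates 1 to 3 and black lines for means (n = 3). Hormad1 over Trip13 is the one plotted pair whose groups do not overlap, at 2.53 to 3.60 in control and 5.00 to 5.65 in Eef1g-cKO libraries, and Rec114 over Mei4 is not drawn because Rec114 had 0 reads in 2 libraries.

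The catalytic pair did not pass the test. Spo11, which encodes the topoisomerase-like protein that cuts DNA, lies on chromosome 2 from 172977700 to 172993576 (plus strand, 8 exons) and had 118, 82.4 and 93.5 CPM in control and 126, 91.0 and 89.6 CPM in Eef1g-cKO libraries. Its groups overlapped almost fully. The log2 fold change was 0.07 (SE 0.26, edgeR adjusted p = 0.896) with a 95% interval from −0.48 to 0.62, which leaves out a change as large as that of Hormad1. Gm960, which encodes the TOPOVIBL partner of SPO11 (chromosome 19 from 4625734 to 4698668, minus strand, 15 exons), had 35.1, 33.1 and 26.9 CPM in control and 43.7, 62.7 and 41.7 CPM in Eef1g-cKO libraries. All 3 Eef1g-cKO libraries were above the controls, but the log2 fold change of 0.66 (SE 0.36) had an edgeR adjusted p of 0.25. The Spo11 to Gm960 log2 read ratio was 1.61 ± 0.261 in control and 1.05 ± 0.495 in Eef1g-cKO (SD, n = 3), with overlap and an exact permutation p of 0.2.

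Of the genes that prepare the axis for cutting, the 2 that rose were those of the largest level, Ccdc36 and Ankrd31. Ccdc36 encodes IHO1, the protein that links the break machinery to HORMAD1, and lies on chromosome 9 from 108403611 to 108428484 (minus strand, 7 exons). Its level was 149, 102 and 104 CPM in control and 229, 227 and 272 CPM in Eef1g-cKO libraries. The groups did not overlap, and the log2 fold change was 1.04 (SE 0.22, edgeR adjusted p = 0.00354), or 2.05-fold. The log2 read ratio of Ccdc36 to Hormad1 was −2.79 ± 0.545 in control and −3.45 ± 0.459 in Eef1g-cKO (SD, n = 3), with overlap and an exact permutation p of 0.3. Whether IHO1 RNA rose less than that of its HORMAD1 anchor was therefore not resolved.

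Ankrd31 encodes an ankyrin repeat protein that binds REC114 and is needed for timely breaks and for breaks in the pseudoautosomal region. It lies on chromosome 13 from 96748272 to 96910039 (plus strand, 25 exons). Control libraries were close together at 323, 310 and 300 CPM, and Eef1g-cKO libraries were spread at 462, 392 and 664 CPM. The groups did not overlap, and the highest level was again that of Eef1g-cKO replicate 3. The log2 fold change was 0.69 (SE 0.19, edgeR adjusted p = 0.0194), or 1.62-fold. This call was lost in 8 of 20 other fits, including the removal of any 1 of the 3 control replicates (edgeR adjusted p = 0.0606, 0.0737 and 0.0843), library-total scaling (log2 fold change 0.48, edgeR adjusted p = 0.0889) and a GC content correction (0.41, edgeR adjusted p = 0.187).

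Mei4, Rec114 and Mei1 had the lowest levels per kilobase of gene length in both groups. Mei4 and Mei1 did not pass, and Rec114 was not tested. Mei4, whose product forms a complex with REC114 (chromosome 9 from 81863670 to 82206007, plus strand, 5 exons), had 22.1, 48.3 and 23.5 CPM in control and 57.4, 42.3 and 58.7 CPM in Eef1g-cKO libraries. Control replicate 2 lay inside the Eef1g-cKO range, and the log2 fold change of 0.73 (SE 0.39) had an edgeR adjusted p of 0.239. With this control library left out it was 1.20 (edgeR adjusted p = 0.123). Mei1, required for breaks in mouse meiosis (chromosome 15 from 82069996 to 82126814, plus strand, 31 exons), had only 4, 32 and 17 reads in control and 17, 40 and 5 reads in Eef1g-cKO libraries. The levels were 9.79 and 12.4 CPM on average, and the log2 difference of 0.35 (SE 0.70, edgeR adjusted p = 0.795) had a 95% interval from −1.11 to 1.82. The interval leaves out only changes larger than these.

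Rec114 was the member with the fewest reads. It lies on chromosome 9 from 58652850 to 58743964 (minus strand, 6 exons) and had 4, 24 and 10 reads in control and 0, 19 and 0 reads in Eef1g-cKO libraries. Eef1g-cKO replicates 1 and 3 were at 0, which allows levels of up to 2.43 and 4.63 CPM, while Eef1g-cKO replicate 2 at 7.45 CPM lay inside the control range of 3.05 to 12.6 CPM. In a fit without a low-count filter the log2 fold change was −1.19 (SE 1.13, edgeR adjusted p = 0.533), a value that depends on how 0 is treated. An exon of Rec114 overlaps Nptn on the opposite strand, a gene with 1057 reads over the 6 libraries, and whether counting used strand is not given in the sources used here, so its count is uncertain. No other member shares exons with another gene.

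**Figure D3:**
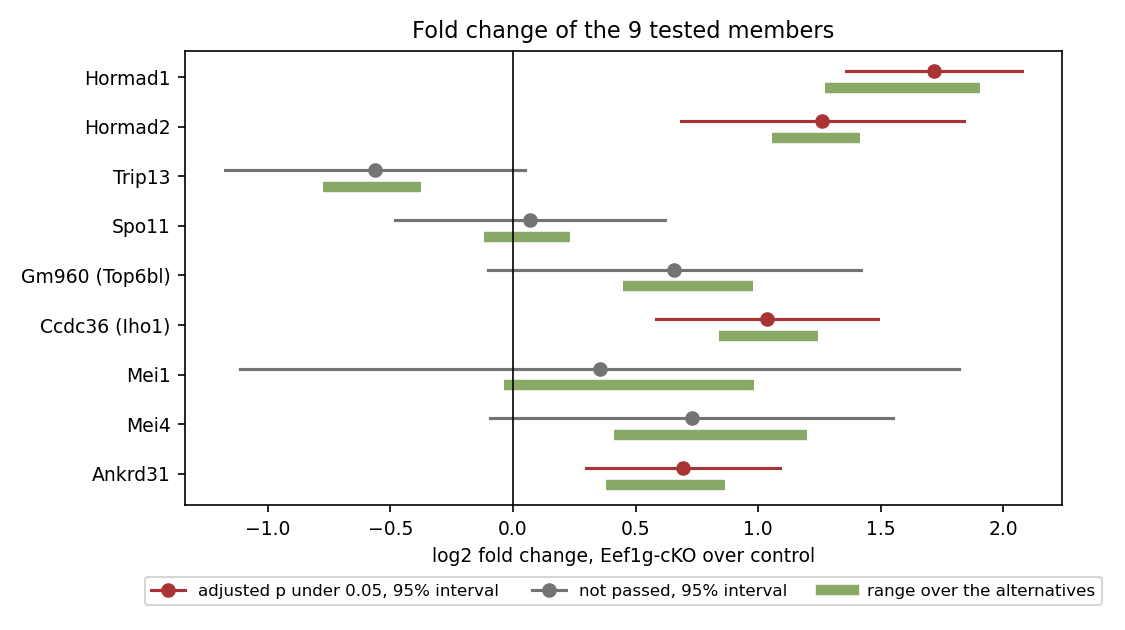
Log2 fold change of the 9 tested genes, Eef1g-cKO over control, as a point with its 95% interval from the edgeR fit (n = 3 per group) and, below each, a green bar for the range over the other processing settings. Hormad1, Hormad2 and Ccdc36 stay above 0 in interval and range, Ankrd31 does so with a lower end of 0.38 over the settings, and the intervals of Trip13, Spo11, Gm960, Mei1 and Mei4 cover 0.

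Levels per kilobase of gene length gave the order of the genes within a group. In control it ran from Hormad1 at 471 CPM per kb through Ankrd31 at 50.1, Ccdc36 at 40.9, Trip13 at 28.7, Spo11 at 24.9 and Hormad2 at 19.9 to Gm960 at 8.56, Mei4 at 7.60, Rec114 at 5.55 and Mei1 at 2.07 CPM per kb. Hormad1 was thus 9.40 times the next gene. The ranges of Ankrd31 and Ccdc36 overlapped, as did those of neighbours from Trip13 to Hormad2 and from Gm960 to Mei1. In Eef1g-cKO the order began with Hormad1 at 1550 CPM per kb, Ccdc36 at 83.9, Ankrd31 at 81.5 and Hormad2 at 48.2. Hormad2 stood apart from Spo11 at 26.1 CPM per kb, and Trip13 followed at 19.2, Gm960 at 13.3, Mei4 at 12.8, Mei1 at 2.61 and Rec114 at 1.94 CPM per kb. Hormad2 thus moved from below Trip13 and Spo11 to above both, while neighbours from Spo11 to Mei4 overlapped. Hormad1 supplied 65.3% to 75.6% of the summed level per kb of the 10 genes in control and 78.6% to 87.5% in Eef1g-cKO libraries. The 7 break genes are all members but Hormad1, Hormad2 and Trip13. They summed to 607 ± 45.0 CPM over the 3 controls and to 968 ± 151 CPM (SD, n = 3) over the Eef1g-cKO libraries, a 1.59-fold difference with no overlap. Its exact permutation p of 0.1 is what 3 against 3 without overlap always gives, so it adds nothing to the lack of overlap. Most of this difference came from Ankrd31 (311 and 506 CPM on average) and Ccdc36 (118 and 242 CPM), the 2 break genes already called.

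**Figure D4:**
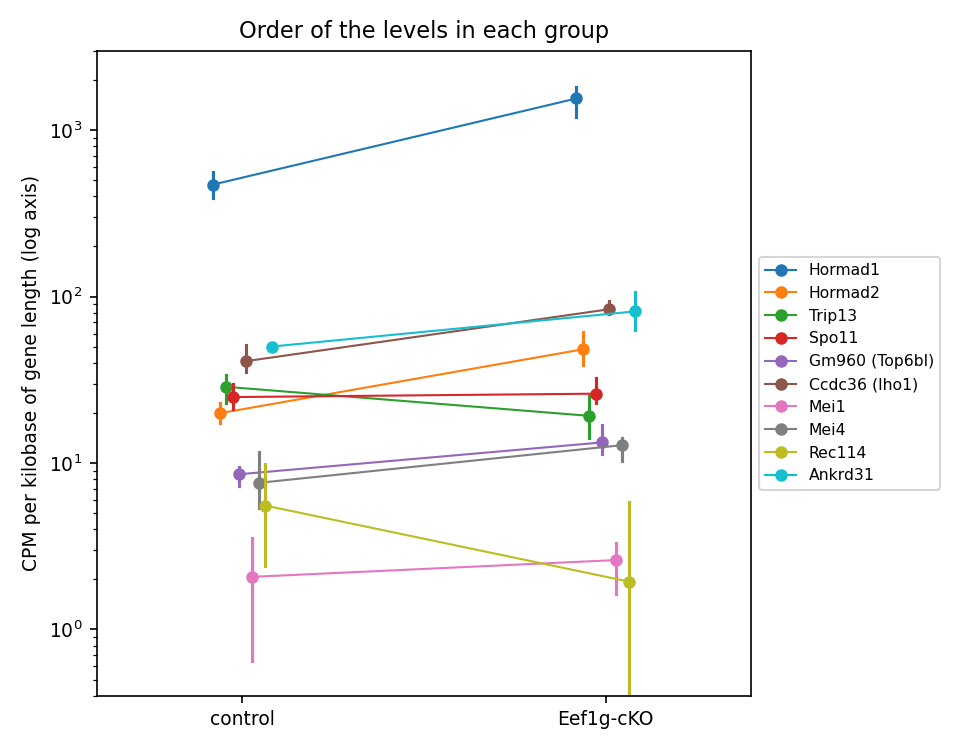
Mean level of the 10 genes per kilobase of gene length (log axis) in control and Eef1g-cKO, with vertical lines from the lowest to the highest of 3 libraries. Hormad1 leads both groups at 471 and 1550 CPM per kb, Hormad2 rises past Trip13 and Spo11, and the line of Rec114 in Eef1g-cKO runs down to 0, below the axis.

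The partners of these genes were described by lists of related function. All 5 tested genes of the meiotic axis core and its cohesin rose, against 7.8% of all tested genes, with a median log2 fold change of 1.12. Sycp3 and Smc1b are also among the L/Z markers above, as are Prdm9, Dmc1, Meiob and Stra8 of the lists below. Sycp2 and Sycp3, the filament proteins of the axis, had log2 fold changes of 1.09 (SE 0.14, edgeR adjusted p = 7.09e-05) and 1.12 (SE 0.14, edgeR adjusted p = 3.31e-05). The meiotic cohesin genes Smc1b, Rad21l and Stag3 had values of 1.57 (edgeR adjusted p = 6.02e-06), 1.35 (edgeR adjusted p = 0.0493) and 0.90 (edgeR adjusted p = 0.00996). Rec8, the kleisin of sister cohesion, was too low to test at 1.25 and 3.42 CPM. The log2 read ratios of Hormad1 to Sycp3 overlapped between groups, at −0.73 ± 0.139 in control and −0.13 ± 0.444 in Eef1g-cKO (SD, n = 3, exact permutation p = 0.2).

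Upstream and downstream of the cut, most genes did not pass, and the counts below stand beside the 7.8% of all tested genes that were called higher. Of 6 genes of hotspot choice, Hells, the remodeller that works with PRDM9, was the one that rose (log2 fold change 0.46, edgeR adjusted p = 0.0219), and the median log2 fold change was 0.57. The largest values there were those of Cxxc1 at −1.38 (edgeR adjusted p = 0.0758) and Zcwpw2 at 0.85 (edgeR adjusted p = 0.059). Of 7 genes of break ends, Rbbp8, the CtIP resection factor, rose with a log2 fold change of 0.88 (edgeR adjusted p = 0.00127), the list median was 0.32, and Mre11a had a value of 0.63 (edgeR adjusted p = 0.252). Of 15 tested genes of strand invasion 3 rose, with a median of 0.30. They were Dmc1, the meiotic recombinase, with a log2 fold change of 1.87 (edgeR adjusted p = 2.26e-06), Brca2, which loads recombinases, with 0.66 (edgeR adjusted p = 0.0355) and Rpa3, a subunit of the single-strand binding complex RPA, with 0.68 (edgeR adjusted p = 0.0478). 4930432K21Rik, which encodes the BRCA2 partner BRME1, had a value of 0.83 (edgeR adjusted p = 0.223).

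Of the genes listed beside Trip13, Mad2l1bp, which encodes an adaptor of TRIP13, was too low to test, with averages of 2.81 and 0.915 CPM. None of the other 3, Mad2l1, Bub1b and Skp1a, passed, with a median log2 fold change of −0.19. Bub1b and Skp1a had values of −0.69 (edgeR adjusted p = 0.455) and −0.19 (edgeR adjusted p = 0.522). In signalling from the unsynapsed axis, to which HORMAD proteins recruit ATR, 3 of 11 tested genes rose, against 7.8% of all tested genes, and the median was 0.27. They were the kinase gene Atr with a log2 fold change of 0.60 (edgeR adjusted p = 0.0118), its activator Topbp1 with 0.62 (edgeR adjusted p = 0.0121), and Mdc1. Mdc1, which spreads the DNA damage signal into chromatin, had a log2 fold change of 1.11 (edgeR adjusted p = 0.00036), and Rad1 a value of 1.11 that did not pass (edgeR adjusted p = 0.149). Of 9 tested regulators of meiotic transcription, 2 rose and 1 fell, with a median of −0.13, where 7.8% of all tested genes were called higher and 6.01% lower. Mybl1, the A-MYB factor, had a log2 fold change of 1.38 (edgeR adjusted p = 0.0028), and Taf4b, a TFIID subunit of germ cells, one of 0.65 (edgeR adjusted p = 0.0184). Stra8, which starts the meiotic program, fell by 0.69 on the log2 scale (edgeR adjusted p = 0.0265). E2f6, a repressor of germline genes, averaged 16.8 CPM in control libraries and 5.89 CPM in Eef1g-cKO ones (log2 fold change −1.42, edgeR adjusted p = 0.256). Hells, Brca2, Rpa3, Atr, Topbp1, Taf4b, Stra8, Mad2l1 and Mad2l1bp are named outside the rule for named genes, after their values were seen.

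**Figure D5:**
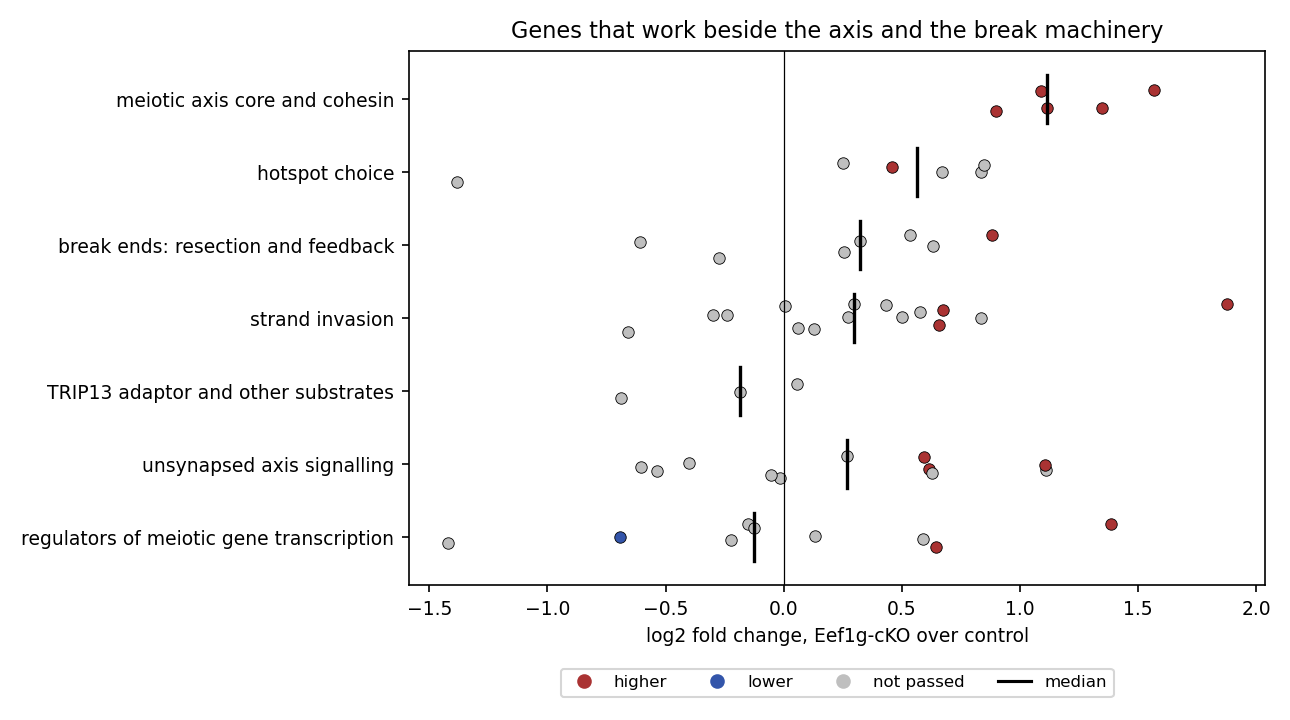
Log2 fold change, Eef1g-cKO over control, of each tested gene in 7 lists of genes that work beside the axis and the break machinery, with red for higher, blue for lower and gray for not passed, and a black line at each list's median. All 5 genes of the axis core and cohesin are red, with a median of 1.12, and the other lists hold 3 or fewer red points each.

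The genes whose levels over the 6 libraries were most like the mean standardised level of the 9 tested members were Fkbp15, Ddx17, Dtymk, Eif1 and Hnrnph1, with Pearson r of 0.988 to 0.991. They were the closest of 4706 genes whose reads averaged 50 or more. The 6 libraries fall into the genotype groups, so these values describe a shared difference between groups as much as a shared course within them. The CPM of Eif1 went from 489 to 1030, and that of Dtymk from 76.8 to 98.4, so likeness of pattern did not mean likeness of fold.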

How the data were processed

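Polyadenylated RNA of 3 control and 3 Eef1g-cKO samples of sorted L/Z spermatocytes was measured. The authors filtered reads with fastp, aligned them to GRCm38 (mm10 in the submitters' processing notes) with HISAT2 and counted reads per gene with featureCounts. The deposited table gives unnormalised counts of reads for each Ensembl gene and library, and whether counting used strand is not given in the sources used here. The table also holds gene position and length. Groups and replicate numbers came from the sample titles.

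Genes were filtered with filterByExpr (minimum count 10, minimum total 15), which kept 8513 genes and 98.1% of reads. After TMM scaling, genotype was tested with the robust quasi-likelihood F test of edgeR 4.0.16 (R 4.3.3). Benjamini-Hochberg adjustment covered all 8513 genes, and a gene was called at an adjusted p under 0.05. CPM used TMM-scaled totals, and CPM per kb used the deposited gene length. Library totals of 763133 to 2617648 reads set a floor of 3 reads at 1.18 to 4.63 CPM. Read ratios within a library had 0.5 reads added and were tested by exact 2-sided permutation. DESeq2 1.42.0, limma-voom (limma 3.58.1), other scalings and filters, a replicate block, GC and length offsets and the removal of each library were tried as alternatives. All 10 genes had the same position in GENCODE M21, which gave exons and GC content. Promoter sequences are from RefSeq (GRCm38.p6), and 9 of 10 genes matched.

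The members, gene lists and pairs were chosen with earlier results of these data known. Named genes are the 10 members, Eef1g, the axis core list, the 2 tested genes of largest absolute log2 fold change in each other list and the 5 genes of most similar pattern.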

Additional observations from a re-analysis of the deposited data

How the results depend on the processing

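The count of members called higher was 4 or 3 under all 20 other fits, and the count called lower was 0 in each. The count both called higher and over 2-fold was 3 or 2. It was 2 with upper-quartile scaling, library totals and at least 10 reads in every library. It was also 2 without control replicate 2, control replicate 3 or Eef1g-cKO replicate 3. Hormad1, Hormad2 and Ccdc36 passed in 20 of 20 fits, with log2 fold changes of 1.28 to 1.91, 1.06 to 1.42 and 0.84 to 1.25, and Ankrd31 in 12, with 0.38 to 0.87. With upper-quartile scaling Ankrd31 had an edgeR adjusted p of 0.054, with a replicate block and a length offset 0.0514, and with a replicate block and a GC offset 0.277. The cause was not tested. Trip13 (−0.78 to −0.38), Gm960 and Mei4 passed in none. Spo11, near 0 in the reported fit, turned negative with upper-quartile scaling (−0.055), library totals (−0.118), at least 10 reads in every library (−0.069), a GC offset (−0.032) and a replicate block with a GC offset (−0.034), and ran from −0.081 (without Eef1g-cKO replicate 1, negative also without control replicate 2) to 0.232 as each library was left out. Mei1 ran from −0.036 (without control replicate 1) to 0.982 when 1 library was left out and had too few reads for the filter of 10 in every library. Over all tested genes the median log2 fold change was −0.05, and it was −0.17 with upper-quartile scaling, −0.24 with library totals and −0.30 without a low-count filter.

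Replicate numbers are shared between groups, but same-numbered libraries did not deviate together (r of −0.03, 0.01 and −0.04). These values describe expression only and cannot show whether same-numbered samples were paired, as by litter or day. With a replicate block 4 members were higher, and the median log2 fold change of the tested members was 0.66. Depth limits the precision for Mei1 and Rec114 most.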
